A study of Rattus norvegicus with 6 samples.

Results

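This account covers 29 genes of cholesterol and fatty acid synthesis among the 32883 rat genes of a count table from an RNA pull-down. The members were taken by gene symbol, and each matched 1 row. They comprise 17 enzyme genes of the sterol steps, 7 enzyme genes of the fatty acid steps and 5 genes that control the SREBP transcription factors. The RNA came from wild type GH4C1 cells, a rat pituitary tumour line that makes growth hormone and prolactin. All cells were treated with psoralen, which crosslinks paired RNA strands. RNA was then captured with oligo pool A or oligo pool B, with 3 libraries for each, in a search for RNAs bound directly to the long noncoding RNA Neat1. Both groups are therefore crosslinked cells of 1 line, and by the labels the pools alone distinguish them. The labels do not give the oligo sequences or say whether a pool was a control, nor do they say whether the libraries came from separate cultures. P-values then measure only the spread between these libraries, which may be technical. Input RNA was not analysed here, so a value reflects both how abundant a transcript was and how well it was recovered.

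Cholesterol is built from acetyl-CoA. Enzymes of the mevalonate steps make isoprenoid units, which are joined to squalene, folded into lanosterol and trimmed to cholesterol by enzymes of the endoplasmic reticulum. Fatty acid synthesis draws on the same acetyl-CoA, which is carboxylated, extended, and then elongated and desaturated. Both branches are under the control of SREBPs, membrane-bound transcription factors that the escort protein Scap carries to the Golgi for cleavage and that Insig proteins hold back when sterols are plentiful. In secretory cells these lipids supply the membranes of the endoplasmic reticulum and of secretory granules.

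Some of these genes were recovered differently by the 2 pools. Of the 29 genes, 25 passed edgeR's expression filter, and 8 were called (edgeR's quasi-likelihood test, adjusted p under 0.05), which is 32.0% of those tested. Over all 11582 genes tested the share was 40.6%. Insig1, Srebf2, Cyp51, Acaca and Fads1 were higher with pool A, against a background of 18.6% of genes in that direction. Pmvk, Lss and Fads2 were higher with pool B, against a background of 22.0%. CPM ranges of the pools were apart for 14 of the 25 (56.0%), against 49.1% of all tested genes. The median size of the log2 fold change was 0.61 over the tested members and 0.60 over all tested genes. The number called among these genes was thus not above the background of the table, and the differences lay in single genes of each branch.

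The promoters of the called genes are shown because SREBPs are known to act on this pathway through its promoters, and sequence is independent of the counts. RefSeq's promoter table for GRCr8, with 250 bases before and 50 bases after each start, held 23 of the 29 members. Acaca, Pmvk, Sqle, Fasn, Fdft1 and Elovl6 had no entry. A CCAAT box, the site of NF-Y, a known partner of SREBPs, was found on either strand in 18 of the 23 genes (78.3%). Among 19005 protein-coding genes the share was 39.8%. The E-box CACGTG was found in Sc5d, Insig1 and Scap, 13.0% of the 23 genes against 7.7% of the protein-coding genes. The sterol response element, written here as TCACNCCAC, was found in 0 of the 23 genes and in 1.1% of the protein-coding genes. Its letters can overlap those of both other motifs, which cannot overlap each other. In all, 9 patterns were searched, and these 3 were marked after the matches had been seen. The GC box GGGCGG, the site of Sp1, was the most frequent of the others, in 19 of the 23 genes (82.6%) against 44.1% of the protein-coding genes. The looser E-box CANNTG, which includes CACGTG, was in 65.2% against 70.4%, its longer form CACGTGA in 8.7% against 4.1%, and CCCCACC in 26.1% against 16.7%. A longer, exact form of the sterol response element and the looser form TCACNCNAC were in 0 of the 23 genes, against 0.03% and 2.65% of the protein-coding genes. These matches describe letters in a window and were not tested for binding. Below are the 200 bases before the start of the 6 called members with an entry, on the gene's own strand, with matches to the 3 marked motifs in capitals.
Lss (GRCr8, chr20:12118231-12118430, strand -): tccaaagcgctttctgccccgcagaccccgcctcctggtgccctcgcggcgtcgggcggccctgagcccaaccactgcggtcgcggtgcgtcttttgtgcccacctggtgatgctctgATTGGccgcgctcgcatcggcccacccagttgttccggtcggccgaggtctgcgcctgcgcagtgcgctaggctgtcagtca
Cyp51 (GRCr8, chr4:30991493-30991692, strand +): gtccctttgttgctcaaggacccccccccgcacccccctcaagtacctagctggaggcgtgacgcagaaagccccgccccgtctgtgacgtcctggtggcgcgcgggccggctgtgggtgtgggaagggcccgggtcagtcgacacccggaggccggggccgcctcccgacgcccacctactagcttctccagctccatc
Insig1 (GRCr8, chr4:8057770-8057969, strand -): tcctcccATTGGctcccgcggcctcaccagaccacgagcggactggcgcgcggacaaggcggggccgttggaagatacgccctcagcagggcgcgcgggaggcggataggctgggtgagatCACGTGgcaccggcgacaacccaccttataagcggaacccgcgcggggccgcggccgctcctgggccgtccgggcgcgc
Srebf2 (GRCr8, chr7:115543107-115543306, strand +): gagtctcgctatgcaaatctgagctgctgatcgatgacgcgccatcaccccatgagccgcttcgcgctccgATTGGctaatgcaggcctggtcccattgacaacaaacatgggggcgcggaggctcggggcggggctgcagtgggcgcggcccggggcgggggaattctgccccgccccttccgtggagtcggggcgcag
Fads1 (GRCr8, chr1:216252492-216252691, strand +): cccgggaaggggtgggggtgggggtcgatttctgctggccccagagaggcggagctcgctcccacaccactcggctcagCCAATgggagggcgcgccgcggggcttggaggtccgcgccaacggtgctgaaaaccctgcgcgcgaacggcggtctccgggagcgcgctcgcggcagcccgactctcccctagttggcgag
Fads2 (GRCr8, chr1:216172034-216172233, strand -): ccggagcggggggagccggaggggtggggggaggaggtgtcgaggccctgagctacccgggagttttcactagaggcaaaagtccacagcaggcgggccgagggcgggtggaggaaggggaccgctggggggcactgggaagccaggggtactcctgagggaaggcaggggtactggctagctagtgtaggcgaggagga
Among the genes higher with pool A, Insig1 holds both a CCAAT box and an E-box, while Srebf2 and Fads1 each hold a CCAAT box and Cyp51 holds neither. Of the pair higher with pool B, Lss holds a CCAAT box and Fads2 holds none of the 3 marked motifs. Both directions therefore include promoters with and without the box.

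Before the comparison of the pools, the counts were checked for depth and cell identity. Library totals ran from 1826390 to 3685899 counts. The share of all counts in the 29 genes was 0.155% ± 0.00975 with pool A and 0.162% ± 0.00911 with pool B (SD, n = 3 each). A count of 0 allows up to 3 counts, or 0.814 to 1.64 CPM (a library's counts rescaled to a common total), which covers counting error only. Of the lactosomatotroph markers, Prl, Gh1 and Pou1f1 had counts in every library, whereas Ghrhr was listed at 0. The summed level of these markers was between 1011 and 1092 CPM with pool A and between 703 and 903 CPM with pool B. Prl itself was higher with pool A (edgeR, log2 fold change 0.83 ± 0.14 SE, adjusted p = 1.26e-05), whereas Gh1 and Pou1f1 were not called. Of the markers of other cell types, Fshb, Tshb, Alb, Adipoq, Col3a1 and Kdr were listed at 0 throughout, while Lhb, Trhr, Dcn and Cd68 had counts in every library. The thyrotroph list summed to between 135 and 155 CPM with pool A and between 71.2 and 98.2 CPM with pool B, nearly all of it Trhr, which was higher with pool A (edgeR, log2 fold change 0.96 ± 0.17 SE, adjusted p = 3.36e-05). The fibroblast list summed to 8.76 to 21.8 CPM over all libraries and the leukocyte list to 9.46 to 23.0 CPM, most of it Dcn and Cd68, neither of them called. Lhb, of the gonadotroph list, was higher with pool B (edgeR, log2 fold change -1.68 ± 0.28 SE, adjusted p = 1.99e-05). Sox2, of the folliculostellate list, was higher with pool A (edgeR, log2 fold change 1.13 ± 0.24 SE, adjusted p = 0.000481). S100b and Fxyd1, of the same list, had 0 to 7 and 0 to 6 counts in a library and did not enter the edgeR fit. The part of such markers in the results was not tested.

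**Figure D1:**
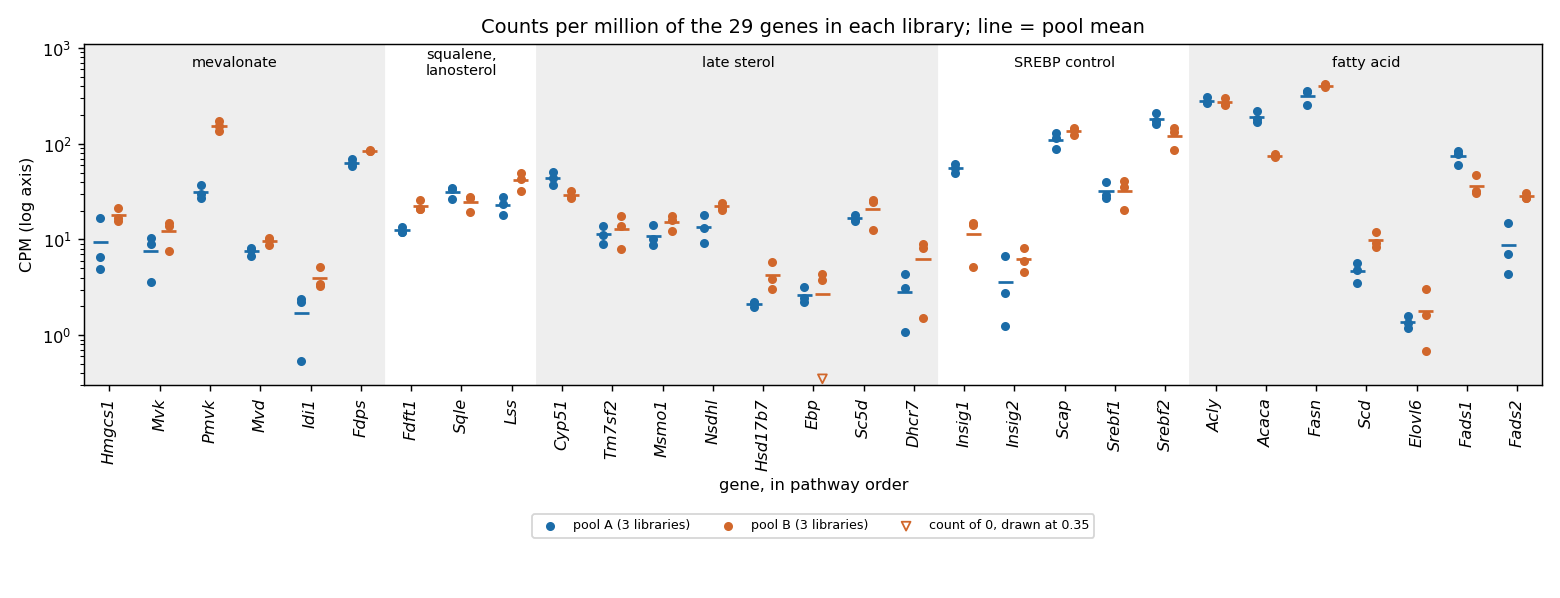
CPM of each of the 29 genes on a log axis, in pathway order, with 1 point per library (3 for pool A, 3 for pool B) and a line at the pool mean. The pools separate widely for Pmvk, Insig1 and Acaca, while Acly, Scap and Srebf1 overlap between pools; Ebp had a count of 0 in 1 library of pool B.

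The mevalonate steps contained the largest difference among the sterol enzymes. Pmvk encodes phosphomevalonate kinase, which adds a phosphate to mevalonate phosphate. It had 37.2, 27.3 and 29.5 CPM in the libraries of pool A and 134, 152 and 172 CPM in those of pool B. The ranges did not overlap, and the lowest library of pool B lay far above the highest of pool A. Pmvk was 4.38-fold higher with pool B (edgeR, log2 fold change -2.13 ± 0.19 SE, adjusted p = 2.71e-10).

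The other mevalonate genes did not pass the threshold, and all 4 that were tested had log2 fold changes below 0, from -0.79 to -0.20. Hmgcs1, which makes the precursor of mevalonate, had 9.36 ± 6.34 CPM with pool A and 17.9 ± 3.1 CPM with pool B (SD, n = 3 each). This was short of the threshold (edgeR, log2 fold change -0.79 ± 0.44 SE, adjusted p = 0.160). In pool A its replicate 2 stood apart at 16.6 CPM, against 4.88 and 6.59 CPM in the other libraries. Without that library the value was -1.49 (edgeR adjusted p = 0.0164). It was -0.46 without pool A replicate 1 and -0.55 without pool A replicate 3 (edgeR adjusted p = 0.472 and 0.393). With limma-voom Hmgcs1 passed the threshold (adjusted p = 0.0383). Mvk, the kinase before Pmvk in the chain, was at -0.51 ± 0.47 (SE) on the log2 scale, and Mvd, the decarboxylase after it, at -0.20 ± 0.47 (SE). Fdps, which joins the isoprenoid units to farnesyl diphosphate, had 63.6 ± 6.0 CPM with pool A and 84.6 ± 0.9 CPM with pool B (SD, n = 3 each). Its ranges did not overlap in CPM, but the difference missed the threshold (edgeR, log2 fold change -0.27 ± 0.17 SE, adjusted p = 0.230). Idi1, the isomerase between Mvd and Fdps, had between 2 and 15 counts in a library and was not tested.

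At the squalene and lanosterol steps, Lss alone passed the threshold. It encodes lanosterol synthase, which folds oxidised squalene into the sterol rings. Lss had 23.3, 18.2 and 27.6 CPM with pool A and 32.0, 43.3 and 49.6 CPM with pool B. The pools did not overlap, with replicate 3 of pool A and replicate 1 of pool B closest to each other. Lss was 1.63-fold higher with pool B (edgeR, log2 fold change -0.71 ± 0.25 SE, adjusted p = 0.0279). It missed the threshold with upper-quartile scaling (adjusted p = 0.0598) and without pool A replicate 1 or 2 or pool B replicate 2 or 3, and across all alternatives its adjusted p lay between 0.0114 and 0.160.

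Fdft1, squalene synthase, pointed the same way as Lss, with 12.4 ± 0.9 CPM in pool A and 22.4 ± 2.8 CPM in pool B (SD, n = 3 each). It missed the threshold (edgeR, log2 fold change -0.71 ± 0.33 SE, adjusted p = 0.0896) and, of the alternatives, passed only with total counts alone (adjusted p = 0.0422). Sqle, the epoxidase that acts between them, had overlapping CPM ranges (edgeR, log2 fold change 0.47 ± 0.26 SE, adjusted p = 0.163).

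Among the late sterol steps, Cyp51 was the only gene past the threshold of 6 tested. It encodes the demethylase that acts on lanosterol. Cyp51 had 44.2, 36.8 and 50.5 CPM with pool A and 26.9, 27.9 and 32.2 CPM with pool B. The ranges were apart by a small margin, and all libraries of pool A were the higher. It was 1.67-fold higher with pool A (edgeR, log2 fold change 0.74 ± 0.23 SE, adjusted p = 0.0117). Cyp51 and Lss act in consecutive steps and were called in opposite directions.

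The remaining late genes were recovered at low counts. Nsdhl, a dehydrogenase of the demethylation steps, had 13.4 ± 4.4 CPM with pool A and 22.1 ± 2.0 CPM with pool B (SD, n = 3 each; edgeR, log2 fold change -0.58 ± 0.34 SE, adjusted p = 0.192). Msmo1, the methyl oxidase of the same stretch, had one of -0.33 ± 0.39 (SE). Tm7sf2 (a sterol reductase), Sc5d (a desaturase) and Dhcr7 (a reductase at the end of the pathway) had log2 fold changes of -0.07, -0.18 and -0.98, none past the threshold. Dhcr7 ran from 1.09 to 8.86 CPM among libraries, and the SE of its log2 fold change was 0.72. The sign for Tm7sf2 and Sc5d changed when pool B replicate 1 was left out, to 0.22 and 0.012. Hsd17b7, the ketoreductase, had 5 to 17 counts and was not tested. Ebp, the sterol isomerase, had 0 to 10 counts and was not tested either. Its count of 0 in pool B replicate 1 allows up to 1.02 CPM.

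The sterol enzymes as a list leaned towards pool B without many calls. Of 14 tested, 12 had a log2 fold change below 0, and the median was -0.42, against 0.015 over all tested genes. Calls numbered 1 for pool A and 2 for pool B, or 21.4% of those tested, below the 40.6% of all genes. The choice of scaling moves all genes together. Total counts alone shifted the median of all genes by -0.14 and upper-quartile factors by 0.10, and the sterol median was then -0.55 and -0.32. A scaling moves the list and all genes alike, so these values do not test the distance between them. When each library had to hold 10 or more counts of a gene, the sterol median was -0.28, against 0.012 over all genes.

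**Figure D2:**
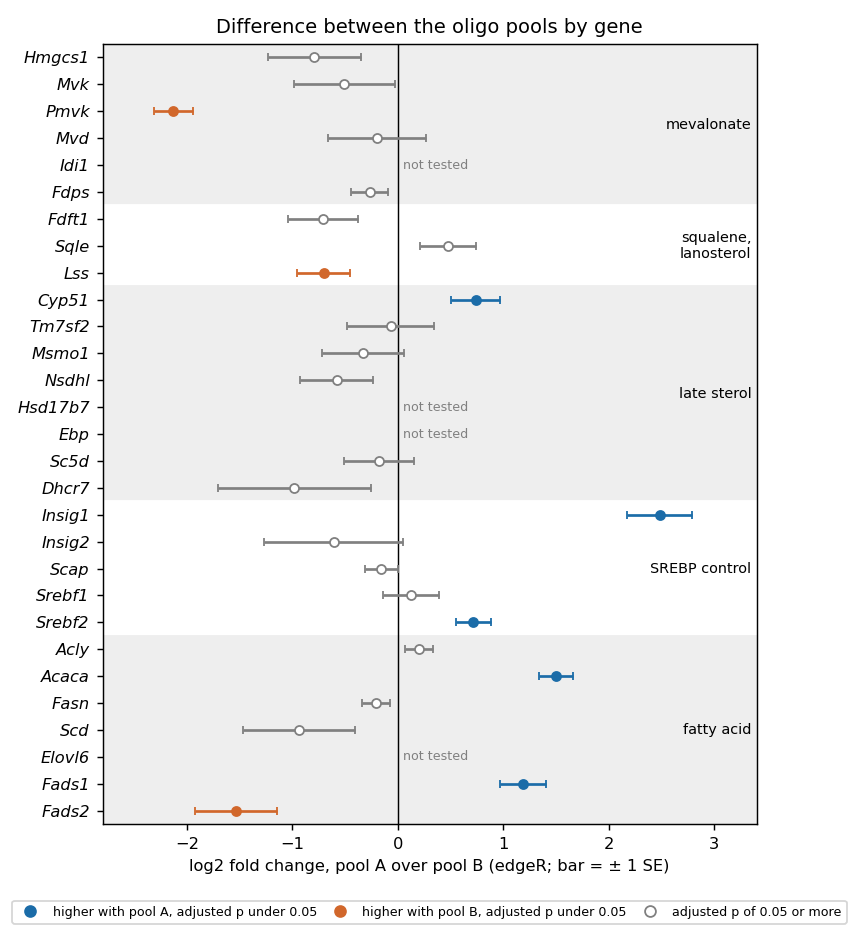
Log2 fold change of pool A over pool B from edgeR for the 25 tested genes, with bars of 1 SE and filled points for genes past an adjusted p of 0.05; 4 genes were not tested. Most sterol genes lie left of 0 with bars that reach close to it, and the widest departures are Pmvk at -2.13 and Insig1 at 2.48.

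The SREBP control genes contained the member most in favour of pool A. Insig1 encodes the protein of the endoplasmic reticulum that holds back Scap and SREBPs, and it is itself a classic SREBP target. It had 55.9, 61.3 and 49.3 CPM with pool A and 5.11, 14.8 and 14.0 CPM with pool B. Each library of pool A was far above every library of pool B, and pool B replicate 1 was the lowest. Insig1 was 5.58-fold higher with pool A (edgeR, log2 fold change 2.48 ± 0.31 SE, adjusted p = 1.55e-07), and the log2 fold change stayed between 2.10 and 2.73 over the alternatives. In RefSeq a noncoding gene, LOC102546740, overlaps Insig1. How the authors' counting divided reads between overlapping genes is not given in the sources used here.

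Its paralog Insig2 did not show this difference. Insig2 had 3.60 ± 2.86 CPM with pool A and 6.25 ± 1.83 CPM with pool B (SD, n = 3 each), and overlapping ranges (edgeR, log2 fold change -0.61 ± 0.66 SE, adjusted p = 0.504). The value rested on single libraries, at -1.49 without pool A replicate 1 and -0.16 without pool A replicate 3. The ratio of Insig1 to Insig2 counts within a library, which no scaling affects, was 8.24, 22.1 and 39.3 with pool A and 0.625, 2.45 and 3.08 with pool B. The ratio did not overlap between pools, although Insig2 had as few as 4 counts in a library. The difference between the paralogs was not tested.

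Srebf2 encodes the SREBP with most weight on sterol genes. It had 172, 161 and 208 CPM with pool A and 86.6, 145 and 134 CPM with pool B. The ranges were apart, and pool B replicate 1 was the lowest, as for Insig1. Srebf2 was 1.64-fold higher with pool A (edgeR, log2 fold change 0.72 ± 0.17 SE, adjusted p = 0.00100). Without pool B replicate 1 the log2 fold change was 0.52 (edgeR adjusted p = 0.0113). RefSeq places the microRNA gene Mir33 within Srebf2, and the Mir33 row had 0 to 2 counts in a library.

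Srebf1, the SREBP more tied to fatty acid genes, had 32.0 ± 6.8 CPM with pool A and 31.9 ± 10.5 CPM with pool B (SD, n = 3 each). It was not called (edgeR, log2 fold change 0.12 ± 0.27 SE, adjusted p = 0.758), and the sign turned to -0.0066 with total counts alone and to -0.11 without pool B replicate 2. Scap had 110.3 ± 21.8 CPM with pool A and 136 ± 11 CPM with pool B (SD, n = 3 each), a log2 fold change of -0.16 ± 0.16 (SE). The escort and its cargo gene Srebf2 thus stood in different proportion, with 1.51, 1.85 and 1.60 Srebf2 counts per Scap count in pool A and 0.700, 1 and 0.959 in pool B. This ratio did not overlap between the pools, whereas Srebf2 counts per Srebf1 count, 5.69 ± 0.54 with pool A and 4.30 ± 2.49 with pool B (SD, n = 3 each), did overlap. Both ratios draw on the Srebf2 counts already called above, and neither was tested.

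Of the first steps of the fatty acid branch, Acaca alone passed the threshold. Acly makes cytosolic acetyl-CoA from citrate. It had 281 ± 20 CPM with pool A and 270.5 ± 24.4 CPM with pool B (SD, n = 3 each), with overlapping ranges (edgeR, log2 fold change 0.20 ± 0.13 SE, adjusted p = 0.246). Acaca encodes acetyl-CoA carboxylase, the committed step. It had 219, 182 and 168 CPM with pool A and 74.3, 77.7 and 72.3 CPM with pool B. The pools were well separated, and the libraries of pool B were nearly equal. Acaca was 2.82-fold higher with pool A (edgeR, log2 fold change 1.497 ± 0.16 SE, adjusted p = 1.28e-08).

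Fasn, the synthase that extends the chain, had 346, 254 and 351 CPM with pool A and 388, 406 and 421 CPM with pool B. The CPM ranges were apart with pool B the higher, but the difference missed the threshold (edgeR, log2 fold change -0.21 ± 0.13 SE, adjusted p = 0.223). Counts of Acaca per count of Fasn were 0.632, 0.718 and 0.479 with pool A and 0.192, 0.192 and 0.171 with pool B. The carboxylase transcript was therefore in greater proportion to the synthase transcript in every library of pool A. In RefSeq 3 genes overlap Acaca, among them the protein-coding C10h17orf78.

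The desaturases split. Fads1 and Fads2 encode desaturases that act in turn on polyunsaturated fatty acids and lie next to each other in the table, with Fads3 in the row beside Fads2. Fads1 had 77.9, 84.6 and 59.3 CPM with pool A and 32.4, 47.1 and 30.3 CPM with pool B. No library of pool B reached a library of pool A. Fads1 was 2.27-fold higher with pool A (edgeR, log2 fold change 1.19 ± 0.22 SE, adjusted p = 8.26e-05).

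Fads2 had 7.05, 15.0 and 4.39 CPM with pool A and 26.9, 30.7 and 26.9 CPM with pool B. Here pool B was higher in all libraries, and pool A replicate 2 came closest to it. Fads2 was 2.90-fold higher with pool B (edgeR, log2 fold change -1.53 ± 0.39 SE, adjusted p = 0.00214). The log2 fold change was -2.13 without pool A replicate 2 and -1.16 without pool A replicate 3. RefSeq places a noncoding gene, LOC134483970, over Fads2. Fads1 counts per Fads2 count were 11.04, 5.63 and 13.5 with pool A and 1.20, 1.54 and 1.13 with pool B. Fads3, from the elongation and desaturation list, had 2.32 ± 0.42 CPM with pool A and 10.2 ± 2.0 CPM with pool B (SD, n = 3 each), in the direction of Fads2 (edgeR, log2 fold change -1.97 ± 0.59 SE, adjusted p = 0.00875), a call lost without pool B replicate 3 (adjusted p = 0.0589). Neighbouring genes of 1 family were therefore called in opposite directions.

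**Figure D3:**
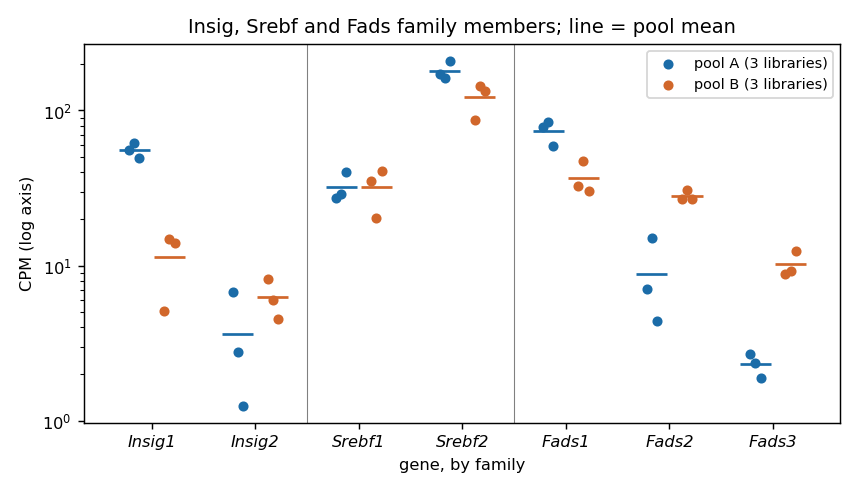
CPM on a log axis for the Insig, Srebf and Fads families, with 1 point per library and a line at the pool mean. Insig1, Srebf2 and Fads1 are higher in all libraries of pool A, Fads2 and Fads3 are higher in all libraries of pool B, and Insig2 and Srebf1 overlap.

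Scd, the desaturase that makes oleate, had 4.64 ± 1.06 CPM with pool A and 9.86 ± 1.95 CPM with pool B (SD, n = 3 each). Its CPM ranges did not overlap, but on 12 to 27 counts it missed the threshold (edgeR, log2 fold change -0.94 ± 0.53 SE, adjusted p = 0.170). Its close paralog Scd2, which can share reads with it, had a log2 fold change of 0.12 ± 0.29 (SE), which turned to -0.020 with total counts alone. Elovl6, the elongase that precedes Scd, had 2 to 8 counts and was not tested. Over the 6 tested fatty acid enzymes, 2 favoured pool A and 1 pool B, or 50% against 40.6% of all genes, and the median log2 fold change was -0.0055 against 0.015.

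Sterol and fatty acid steps were then set against each other within each library. Counts of the 17 sterol genes per count of the 7 fatty acid genes were 0.304, 0.352 and 0.345 with pool A and 0.604, 0.582 and 0.569 with pool B. The ratio averaged 0.334 ± 0.026 with pool A and 0.585 ± 0.017 with pool B (SD, n = 3 each), and the pools did not overlap. The sterol sum was 292 ± 15 CPM with pool A and 483.0 ± 9.5 CPM with pool B, whereas the fatty acid sum was 877 ± 56 and 827 ± 40 CPM (SD, n = 3 each), with overlapping ranges. Transcript lengths were not used, so the ratio compares libraries and not the level of one branch with the other.

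A pair of genes carried much of this contrast. Pmvk made up 10.8% ± 2.2 of the sterol counts with pool A but 31.6% ± 3.3 with pool B, while Acaca made up 21.6% ± 2.5 and 9.06% ± 0.58 of the fatty acid counts (SD, n = 3 each). Without Pmvk the ratio was 0.298 ± 0.030 with pool A and 0.401 ± 0.031 with pool B, still without overlap. Without Pmvk and Acaca it was 0.380 ± 0.033 and 0.441 ± 0.037 (SD, n = 3 each), and the ranges overlapped. These exclusions were chosen after seeing the data. A planned check left out the most abundant gene of each list, Pmvk and Fasn. The ratio was then 0.466 ± 0.046 with pool A and 0.786 ± 0.066 with pool B (SD, n = 3 each), without overlap. No p-value is given for the ratio because it sums chosen genes.

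**Figure D4:**
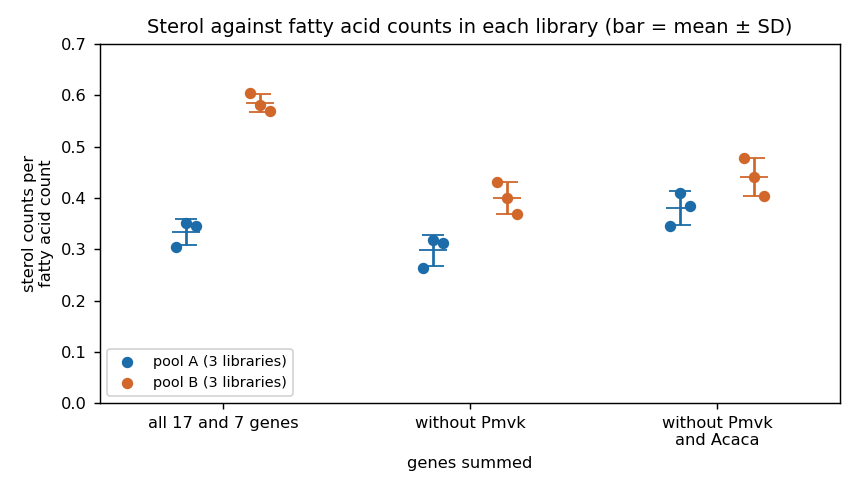
Summed counts of sterol genes per count of fatty acid genes in each library, with mean and SD per pool, for all genes, without Pmvk, and without Pmvk and Acaca. The pools lie apart at 0.334 and 0.585 for all genes and overlap once both genes are left out.

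Of 8 tested soluble enzymes 1 was higher with each pool, and of 12 tested enzymes held in the membrane of the endoplasmic reticulum 2 were higher with each pool. These shares of 25% and 33.3% were below the 40.6% of all genes. The medians of the log2 fold change were -0.24 and -0.45.

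Lists of related genes placed these results in their pathway. The SREBP processing list had 11 genes, of which 5 favoured pool A and 1 pool B, 54.5% against 40.6% of all genes tested. CPM ranges of the pools were apart for 4 of the 11 (36.4%), below the 49.1% of all genes tested. Erlin2, which takes part in the degradation of proteins at the endoplasmic reticulum, had 106, 84.6 and 76.9 CPM with pool A and 32.0, 35.6 and 19.3 CPM with pool B (edgeR, log2 fold change 1.79 ± 0.22 SE, adjusted p = 2.28e-07). Fbxw7, the ubiquitin ligase component that marks nuclear SREBPs for degradation, had 156, 174 and 174 CPM with pool A and 62.4, 61.9 and 42.8 CPM with pool B (edgeR, log2 fold change 1.74 ± 0.17 SE, adjusted p = 2.52e-09). Both were higher in every library of pool A. The median of this list was 0.61, against 0.015 over all genes tested. Mbtps1 and Mbtps2, the proteases that cleave SREBPs, did not pass the threshold, with log2 fold changes of 0.19 ± 0.16 and 0.0019 ± 0.30 (SE), the latter turning to -0.13 with total counts alone.

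Of 13 tested genes of sterol uptake and transport, 2 favoured pool A and 3 pool B, a share of 38.5% that was near the 40.6% of all genes. Vldlr, a lipoprotein receptor, had 29.8, 28.1 and 32.0 CPM with pool A and 109.7, 134 and 110.1 CPM with pool B, and its log2 fold change was -1.83 ± 0.18 (SE, edgeR adjusted p = 4.71e-09). Lrp1, of the same receptor family, and Abca1, a cholesterol exporter, were also higher with pool B, with log2 fold changes of -1.05 ± 0.15 and -0.87 ± 0.13 (SE). Scp2, a sterol carrier, and Mylip, a ligase that degrades lipoprotein receptors, were higher with pool A, at 1.58 ± 0.32 and 0.68 ± 0.27 (SE). Mylip lost its call in 8 of its refits, among them those without any 1 library other than pool B replicate 2.

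Among 9 tested partners of the sterol enzymes, 1 favoured pool A and 3 pool B, or 44.4% against 40.6%. Por and Cyb5b, which pass electrons to enzymes such as Cyp51 and the desaturases, were higher with pool B, with log2 fold changes of -0.93 ± 0.23 and -1.22 ± 0.18 (SE). Cyb5r3, the reductase of cytochrome b5, was higher with pool A, as Cyp51 was, at 1.12 ± 0.36 (SE, edgeR adjusted p = 0.0130). Its CPM ranges overlapped, it was named after its values were seen, and the call was lost without pool A replicate 1 or pool B replicate 3 (adjusted p = 0.0867 and 0.0818). Cyb5a, the microsomal cytochrome b5, was at -0.81 ± 0.33 (SE) and missed the threshold (edgeR adjusted p = 0.0548), but passed with total counts alone, with limma-voom and without replicate 3 of either pool. Pgrmc1 was listed at 0 in all libraries.

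Of 8 tested genes of fatty acid supply, 1 favoured pool A and 2 pool B, or 37.5% against 40.6%. Prkaa1 encodes a catalytic subunit of the AMP-activated kinase, which inhibits acetyl-CoA carboxylase. It had 15.2, 27.3 and 24.2 CPM with pool A and 140.1, 147 and 162 CPM with pool B, with no overlap (edgeR, log2 fold change -2.62 ± 0.21 SE, adjusted p = 3.59e-11). Prkab1, a regulatory subunit of the same kinase, was higher with pool A at 1.05 ± 0.33 (SE, edgeR adjusted p = 0.0111), with overlapping CPM ranges, and was named after its values were seen. Its call was lost without pool A replicate 2 or pool B replicate 1 (adjusted p = 0.0599 and 0.0745). Slc25a1, the citrate carrier that feeds Acly, had a log2 fold change of -0.60 ± 0.21 (SE), which lost its call with upper-quartile factors and without replicate 2 of either pool.

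The elongation and desaturation list held the widest difference of the related genes. Of 11 tested, 2 favoured pool A and 4 pool B, or 54.5% against 40.6%. Elovl5, the elongase that acts between Fads2 and Fads1 on polyunsaturated chains, had 18.4, 9.49 and 17.9 CPM with pool A and 174, 217 and 193 CPM with pool B. All libraries of pool B were far above those of pool A (edgeR, log2 fold change -3.50 ± 0.20 SE, adjusted p = 9.77e-14). Elovl2, which acts on longer polyunsaturated chains, was higher with pool B at -1.66 ± 0.29 (SE), and Elovl4 and Fads6 were higher with pool A at 1.96 ± 0.23 and 1.34 ± 0.25 (SE). In the chain of Fads2, Elovl5 and Fads1, the genes of the earlier steps were thus higher with pool B and that of the last with pool A.

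**Figure D5:**
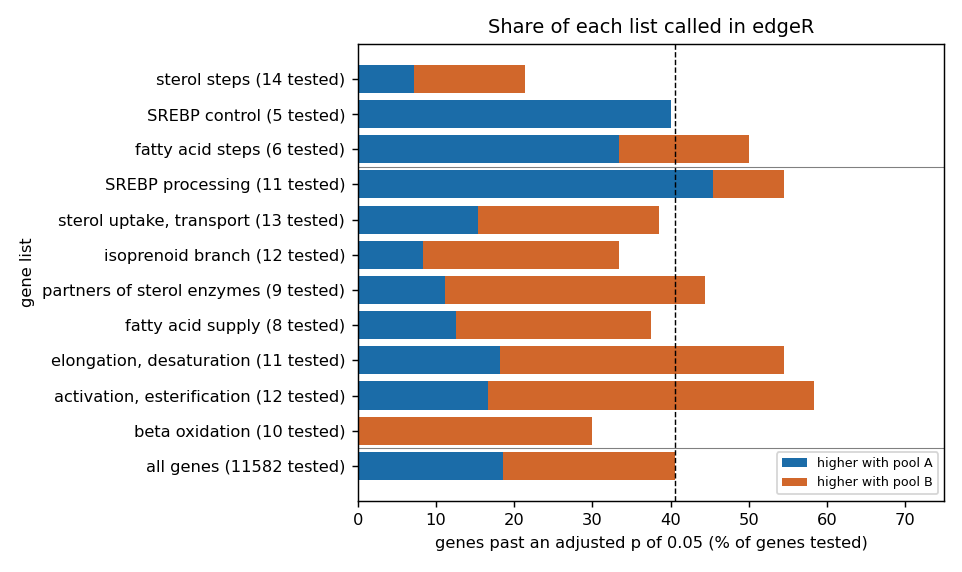
Percentage of tested genes past an adjusted p of 0.05 in edgeR, split by direction, for the 3 groups of members, 8 lists of related genes and all genes, with a dashed line at 40.6%. The sterol steps reach 21.4% and the fatty acid steps 50%, on 14 and 6 genes.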

How the data were processed

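The authors deposited raw counts per gene for 6 libraries; per the submitters' processing notes STAR and featureCounts were used, and the genome build, annotation and strand setting are not given in the sources used here. The other column of each pool, the mean of its 3 deposited counts, was not used. Counts were tested with edgeR 4.0.16 in R 4.3.3 (TMM factors, filterByExpr, quasi-likelihood test with pool as the only term), fitted on the whole table, with two-sided p-values adjusted by Benjamini-Hochberg over 11582 genes and a threshold of 0.05. Fold changes divide pool A by pool B, SEs come from the F statistic, and CPM uses total counts. The script was tested on simulated counts. Deviations of same-numbered libraries correlated at 0.041, -0.019 and 0.020, so numbers were not taken as pairs. The chi-square per degree of freedom between libraries of a pool was at least 6.14. Members and lists were chosen with earlier results of these data known, and of 9 promoter patterns searched, 3 were marked after their matches were seen. All members were named, and from each list of related genes, apart from some genes not reported here, up to 3 per direction past the threshold, with ranges apart, at least 10 counts on average and the largest change. Alternatives used other scalings, filters, DESeq2 1.42.0, limma-voom (limma 3.58.1), a replicate block and each library left out.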

Additional observations from a re-analysis of the deposited data

How the results depend on the processing

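Of 347 refits of the 25 tested members, 333 kept their direction and side of the threshold, 5 lost the call (all Lss), 3 gained it (Hmgcs1 2, Fdft1 1) and 6 changed sign. The sign changes were those of Tm7sf2 with upper-quartile factors (0.032), Srebf1 with total counts alone (-0.0066), and 3 genes on leaving out a library. Those were Tm7sf2 (-0.33 to 0.22; 0.073 without A1 and 0.22 without B1), Sc5d (-0.45 to 0.012; 0.012 without B1) and Srebf1 (-0.11 to 0.33; -0.11 without B2), where A1 stands for replicate 1 of pool A and so on. At an adjusted p under 0.01, 0 sterol enzymes favoured pool A and 1 favoured pool B, since Cyp51 and Lss lay between the thresholds. With upper-quartile factors 1 sterol enzyme favoured pool B, and with total counts alone or limma-voom 3 did. Leaving out 1 library gave from 1 to 2 such enzymes, with 1 for A1, B2 or B3. The log2 difference between pools in sterol counts per fatty acid count was -0.81. It was -0.52 with geometric means and -0.75 without the most abundant gene of each list. It was -0.43 without Pmvk and -0.21 without Pmvk and Acaca, and leaving out 1 library gave -0.85 to -0.75. With the replicate number as a block, 5 members favoured pool A and 3 favoured pool B, and the sterol median was -0.44. Of 586 refits of 42 related or marker genes, 551 kept both, 24 lost the call (8 genes), 5 gained it and 6 changed sign. The sign changes were those of Mbtps2 (-0.13 with total counts alone, -0.0054 with limma-voom, -0.048 without A3 and -0.079 without B2) and Scd2 (-0.020 with total counts alone, and -0.0069 without A1). Depth limits Idi1, Hsd17b7, Ebp and Elovl6, which were not tested.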

Other observations

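Of 12 tested genes of fatty acid activation and esterification, 2 favoured pool A and 5 pool B, 58.3% of those tested against 40.6% of all genes. Gpam, which starts glycerolipid synthesis, had 76.0, 53.8 and 75.3 CPM with pool A and 289, 335 and 339 CPM with pool B (edgeR, log2 fold change -2.08 ± 0.15 SE, adjusted p = 9.81e-12). Lpin1 was higher with pool B and its paralog Lpin3 higher with pool A, with log2 fold changes of -1.01 ± 0.18 and 1.04 ± 0.17 (SE). Dgat1, which makes triglyceride, was higher with pool A at 0.78 ± 0.22 (SE), and Acsl5, an acyl-CoA synthetase, was higher with pool B at -0.51 ± 0.18 (SE). The call of Acsl5 was lost with upper-quartile factors and without replicate 1 of either pool. Acsl4 was listed at 0 in all libraries.

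In the isoprenoid branch, 1 of 12 tested genes favoured pool A and 3 pool B, or 33.3% against 40.6% of all genes. Coq2, of ubiquinone synthesis, had 12.5, 11.1 and 6.90 CPM with pool A and 46.0, 45.4 and 58.3 CPM with pool B (edgeR, log2 fold change -2.14 ± 0.29 SE, adjusted p = 7.81e-07). Dhdds, of dolichol synthesis, and Rce1, which trims prenylated proteins, were also higher with pool B at -1.47 ± 0.18 and -0.88 ± 0.26 (SE), and Pggt1b, a subunit of a prenyltransferase, was higher with pool A at 1.04 ± 0.38 (SE). Pggt1b lost its call with total counts alone and without pool A replicate 3 or pool B replicate 2 or 3, and Rce1 without pool B replicate 2. Of 10 tested genes of beta oxidation, 0 favoured pool A and 3 pool B in edgeR, a share of 30% that was below the 40.6% of all genes. Acads, the short-chain dehydrogenase, had a log2 fold change of -2.38 ± 0.52 (SE) that was -3.14 without pool A replicate 1, Hadha one of -0.75 ± 0.18 (SE) and Cpt1a, which admits fatty acids to mitochondria, one of -0.66 ± 0.16 (SE).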
